A study of Mus musculus with 11 samples.

Results

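Genes for translation initiation and elongation factors were examined in gonadal white adipose tissue (WAT) of mice fed a high fat diet (HFD) with or without iodomethylcholine (IMC). Members were all gene symbols in the deposited table that begin with Eif or Eef followed by a digit, which gave 60 of 12787 listed genes. No expression value was used to choose them. The rule also takes in genes that act on the factors, such as the eIF2 alpha kinases and the eIF4E-binding proteins. Male C57BL/6J mice received a 60% HFD for 20 weeks, either alone with vehicle (HFD, 5 mice) or with 0.06% w/w IMC in the diet (HFD with IMC, 6 mice). IMC blocks the bacterial enzyme that releases trimethylamine from choline. Each mouse gave 1 library. The series' design text has all animals on the HFD ahead of the study, while the paper gives no such period for the sequenced mice. In addition, 1 further control library was dropped by the authors for its quality. No age was stated for the sequenced mice themselves.

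Protein synthesis starts when eIF2 brings the initiator tRNA to the small ribosomal subunit, with eIF1, eIF1A, eIF3 and eIF5 bound beside it. The eIF4F complex (the cap-binding protein eIF4E, the scaffold eIF4G and the helicase eIF4A) loads this assembly onto a capped mRNA, and the 4E-BP proteins compete with eIF4G for eIF4E. During elongation, eEF1A delivers aminoacyl-tRNAs, the eEF1B complex recharges eEF1A with GTP, and eEF2 moves the ribosome along the mRNA. Insulin and amino acids act on these steps through mTORC1, and cell stress acts through phosphorylation of eIF2 alpha.

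Values are log2 CPM, which set the reads of a gene against the scaled size of its library, and a positive log2 fold change means a higher level in IMC-treated mice. Groups were compared with limma, with Benjamini-Hochberg adjustment over all 12787 genes, and a gene was called at an adjusted p under 0.05. Libraries held between 22320022 and 25155366 reads on listed genes, and the members averaged from 140 reads (Eif2s3x) to 37938 reads (Eef2) per mouse. Every member was at or above 1 CPM in each of the 11 mice. The marker genes of adipose tissue were present, and the summed levels of some cell types differed between the treatment groups. All 10 adipocyte markers were called higher (summed level 9734 to 13933 CPM in HFD mice and 19268 to 23633 CPM in IMC-treated mice). Of 10 macrophage markers, 9 were called lower (11931 to 16199 against 6306 to 10188 CPM). All 6 mast cell markers were lower (502 to 1149 against 160 to 323 CPM), as were 3 of 6 fibroblast and progenitor markers and 1 of 4 measured mesothelial markers. All 5 measured skeletal muscle markers were higher (23 to 35 against 82 to 111 CPM), as was 1 of 6 endothelial markers, and T and B cell markers were not analysed here. Summed levels overlapped for the fibroblast and progenitor (8745 to 11008 against 6829 to 8869 CPM), mesothelial (196 to 274 against 92 to 221 CPM) and endothelial markers (407 to 571 against 472 to 650 CPM). In bulk tissue, fewer cells of a type and less RNA per cell cannot be told apart, and the part of these cell types in the results on the factors was not tested.

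Promoter sequences give the members a context that the expression values do not use. Of the 60 members, 48 had an entry in a RefSeq table (build GRCm38.p6) of the 250 bases before and 50 bases after each gene's start. Those without an entry were Eef1d, Eef1g, Eif1a, Eif2b3, Eif3e, Eif3h, Eif3i, Eif4e3, Eif4ebp1, Eif4ebp3, Eif4g2 and Eif6. CACGTG, the E-box read by Myc and by circadian and lysosomal transcription factors, was searched on both strands, which are identical for this palindrome. It was present in 12 of these 48 members (25%) and in 11.6% of the 9749 listed genes with an entry. Among members called below, 1 of 5 called higher and 4 of 10 called lower held it, against 7 of 33 that were not called. TGATGNAA, the core of sites bound by the stress factor ATF4, was found in 2 members that were not called (Eif2s3x and Eef2k) and in 2.79% of listed genes. Both motifs were chosen after the data were seen, and a match is a description of the letters only. The 5 called members with an E-box are shown with the motif in capitals, 5′ to 3′ on the strand of the gene, from the part of the window before the start.
Eif4g1, chr16:20672603-20672726 on the + strand: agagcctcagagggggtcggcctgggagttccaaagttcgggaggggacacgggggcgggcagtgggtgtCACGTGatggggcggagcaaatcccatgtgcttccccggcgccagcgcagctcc
Eif1b, chr9:120492512-120492605 on the + strand: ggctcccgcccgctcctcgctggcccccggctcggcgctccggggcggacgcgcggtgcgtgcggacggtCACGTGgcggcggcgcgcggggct
Eif3k, chr7:28981889-28982002 on the - strand: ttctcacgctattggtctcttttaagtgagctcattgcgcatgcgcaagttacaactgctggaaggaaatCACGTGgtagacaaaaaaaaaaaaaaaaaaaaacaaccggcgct
Eif3f, chr7:108934277-108934414 on the + strand: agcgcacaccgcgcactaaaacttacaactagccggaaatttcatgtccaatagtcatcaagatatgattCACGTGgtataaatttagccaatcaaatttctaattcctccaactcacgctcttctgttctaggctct
Eif4a1, chr11:69672537-69672673 on the - strand: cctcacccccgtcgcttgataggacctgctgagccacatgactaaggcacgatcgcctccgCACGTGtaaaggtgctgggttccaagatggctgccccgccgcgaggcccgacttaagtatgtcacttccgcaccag
The E-box began 24 bases before the start in Eif1b, 44 in Eif3k, 54 in Eif4g1, 68 in Eif3f and 189 in Eif4a1. This start is that of the table's transcript, so the printed stretch runs 7 bases into the RefSeq gene extent of Eif4g1 and 2 bases into that of Eif3k.

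Of the 60 members, 20 were called (33.3%), and 40.9% of all genes tested were called. IMC-treated mice had higher expression of 7 members (11.7%, against 20% of all genes) and lower expression of 13 (21.7%, against 21% of all genes). With total-count scaling the counts were 7 higher and 20 lower. Calls over all 12787 genes then numbered 5464, against 5236 in the main fit. The median log2 fold change was -0.05 over the 60 members and -0.03 over all genes. Differences were small, since called members had a median absolute log2 fold change of 0.22, compared with 0.36 for all called genes, and the range over all members was -0.42 to 0.47. The spread between mice of a group was also small, with a median SD of 0.08 for members and 0.13 for all genes. For all genes within the members' range of mean levels, the median SD was 0.12. Groups did not overlap for 12 members (20%, against 23.1% of all genes), and 11 of these were called. The share of the scaled library on the members was 1.018% ± 0.017 (SD, n = 5) in HFD mice and 1.003% ± 0.014 (SD, n = 6) with IMC, with overlapping ranges. As a share of reads on listed genes it was 1.03% ± 0.01 and 0.992% ± 0.01, and the ranges of 1.02% to 1.05% and 0.970% to 1.01% did not overlap.

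**Figure D1:**
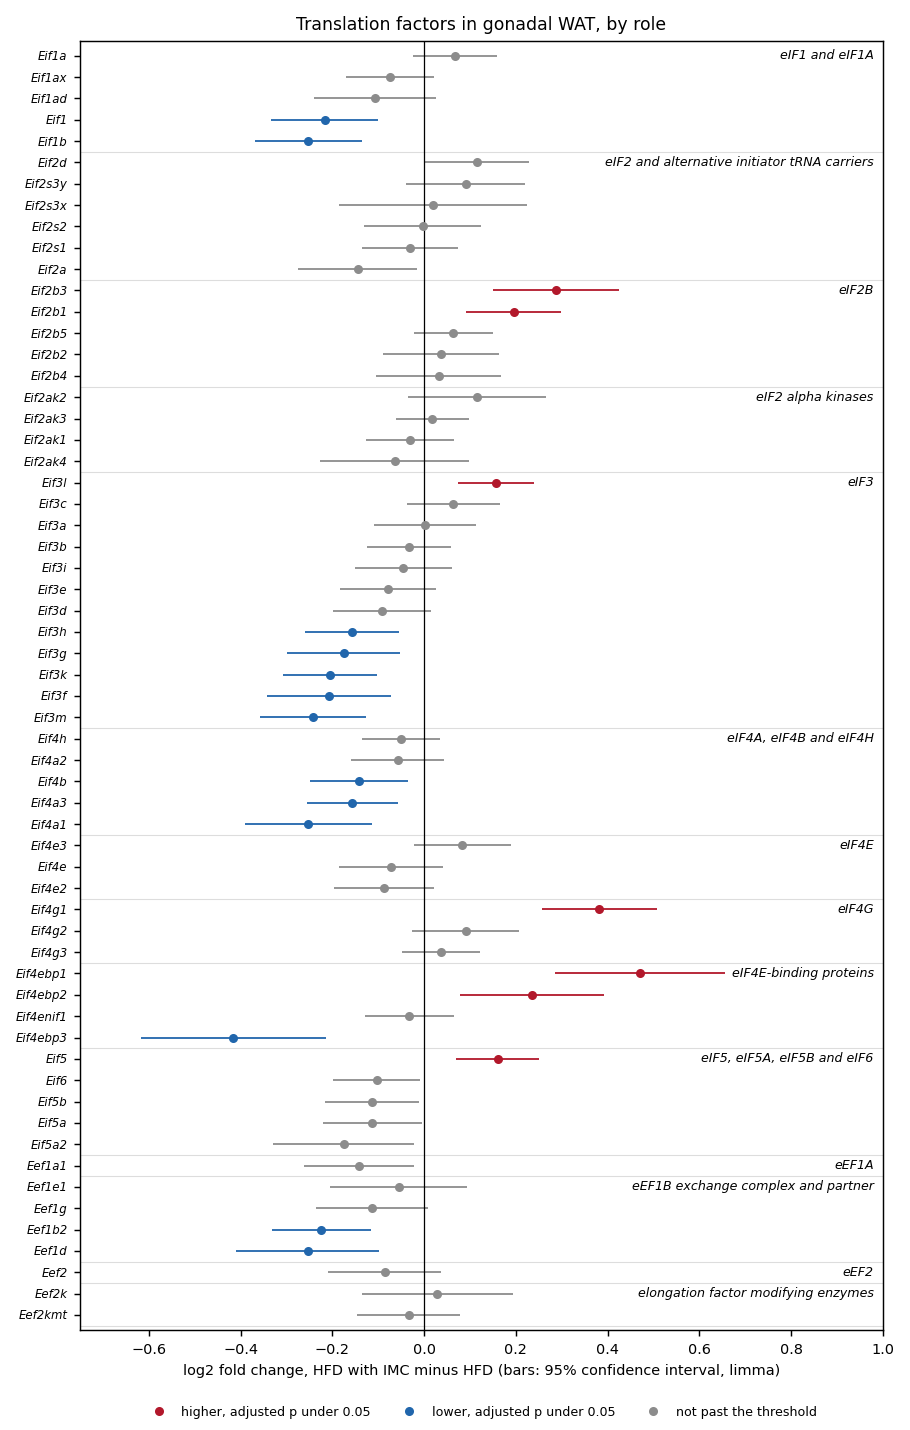
Log2 fold change (x axis, HFD with IMC minus HFD) of each of the 60 members with its 95% confidence interval from limma, in groups by role. Called members, 7 higher and 13 lower, are coloured, and the 40 others are grey. Both ends of the range, Eif4ebp1 at 0.47 and Eif4ebp3 at -0.42, are eIF4E-binding proteins.

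The highest and the lowest fold changes were both among the eIF4E-binding proteins, which act on the eIF4F complex. Eif4g1 encodes the main scaffold of eIF4F (chr16:20672720-20692883). It measured 9.06, 9.29, 9.18, 9.12 and 9.18 log2 CPM in the HFD mice, and in IMC-treated mice the lowest value was 9.45, the median 9.54 and the highest 9.67. All IMC-treated mice were above all HFD mice, and Eif4g1 rose by 0.38 ± 0.06 on the log2 scale (SE, adjusted p = 0.000293), or 30.3%. Its relatives were not called. Eif4g2, which encodes a scaffold lacking the eIF4E-binding part, differed by 0.09 ± 0.05 (SE, adjusted p = 0.202). Eif4g3, a second full-length scaffold gene, differed by 0.04 ± 0.04 (SE, adjusted p = 0.48, 95% interval -0.05 to 0.12).

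The difference between the eIF4G genes was tested within each mouse, where library scaling drops out. The log2 ratio of Eif4g1 to Eif4g3 was 1.94 ± 0.09 (SD, n = 5) in HFD mice and 2.28 ± 0.04 (SD, n = 6) with IMC. It rose by 0.35, with no overlap (two-sided exact permutation test, p = 0.00216, adjusted over 10 pairs p = 0.0108). The ratio of Eif4g1 to Eif4g2 rose by 0.29, from -0.96 ± 0.11 (SD, n = 5) to -0.67 ± 0.09 (SD, n = 6), also without overlap and with the same exact p and adjusted p. This p of 0.00216 is the smallest that all assignments of the 11 mice to groups of 5 and 6 allow.

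The eIF4E-binding proteins moved in both directions. Eif4ebp1 (chr8:27260327-27275656), which encodes the 4E-BP best known in adipose tissue, measured 6.38, 6.59, 6.23, 6.32 and 6.53 log2 CPM in HFD mice and from 6.75 to 7.18 with a median of 6.81 in IMC-treated mice. The groups were separate, and it rose by 0.47 ± 0.09 (SE, adjusted p = 0.000946), or 38.6%. Eif4ebp2, for a second 4E-BP, rose by 0.24 ± 0.07 (SE, adjusted p = 0.0208), from 5.33, 5.64, 5.55, 5.55 and 5.31 to a range of 5.58 to 5.84 with a median of 5.72. HFD mouse 2 lay within the range of the IMC-treated mice, and the call was lost when HFD mouse 1 or HFD mouse 5 was left out (largest adjusted p = 0.0579). Eif4ebp3, for the third 4E-BP, fell by 0.42 ± 0.09 on the log2 scale (SE, adjusted p = 0.00351), from 4.19, 3.94, 3.96, 4.03 and 4.25 to a range of 3.52 to 3.98 with a median of 3.59. Its values overlapped in HFD mice 2 and 3 and IMC mouse 6. Because 65.5% of its 50-base windows are shared with an overlapping gene on the same strand, its level is uncertain. Eif4enif1, for the eIF4E transporter, differed by -0.03 ± 0.05 (SE, adjusted p = 0.599).

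None of the 3 eIF4E genes was called. Eif4e, the cap-binding protein of eIF4F, differed by -0.07 ± 0.05 (SE, adjusted p = 0.3, 95% interval -0.18 to 0.04). Eif4e2 and Eif4e3, whose proteins bind the cap with other partners, differed by -0.09 ± 0.05 and 0.08 ± 0.05 (SE, adjusted p = 0.186 and 0.193). Within each mouse, the ratio of Eif4e to Eif4e3 fell by 0.15 on the log2 scale (exact permutation test, p = 0.0108, adjusted p = 0.0361), with an overlap of the groups. That call was lost in 9 of the 11 fits that left out 1 mouse. The 3 4E-BP genes together had 11.2 ± 1.28 times (SD, n = 5) the CPM per kb of Eif4e in HFD mice (range 9.51 to 12.5) and 13.5 ± 0.753 times (SD, n = 6) with IMC (range 12.03 to 14.04). The ranges overlapped, and no test was made on this sum. Without Eif4ebp3, whose level is uncertain and which was lower, the ranges were 6.36 to 8.94 and 9.49 to 11.6.

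Of the group of eIF4A, eIF4B and eIF4H genes, 3 of 5 members were called lower (against 21% of all genes), and all 5 had a negative log2 fold change. Eif4a1, the principal helicase of eIF4F, measured 6.66, 6.32, 6.59, 6.46 and 6.62 log2 CPM in HFD mice and from 6.16 to 6.34 with a median of 6.32 in IMC-treated mice. It fell by 0.25 ± 0.06 on the log2 scale (SE, adjusted p = 0.00723), and HFD mouse 2 lay among the IMC-treated mice. Eif4a1 shares 65.3% of its 50-base windows with 8 other genes, among them pseudogenes, so its count is uncertain. Eif4a3, a helicase of the exon junction complex, fell by 0.16 ± 0.05 (SE, adjusted p = 0.0155) without overlap, and shares 24.4% of its windows with 3 other genes. Eif4b, the helicase cofactor, fell by 0.14 ± 0.05 (SE, adjusted p = 0.0365), and its call was lost in 6 of the 11 fits that left out 1 mouse. Eif4a2 and Eif4h were not called, at -0.06 and -0.05 with SE 0.05 and 0.04. The ratio of Eif4a1 to Eif4a2 differed by -0.19 (exact permutation test, p = 0.0779, adjusted p = 0.156).

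**Figure D2:**
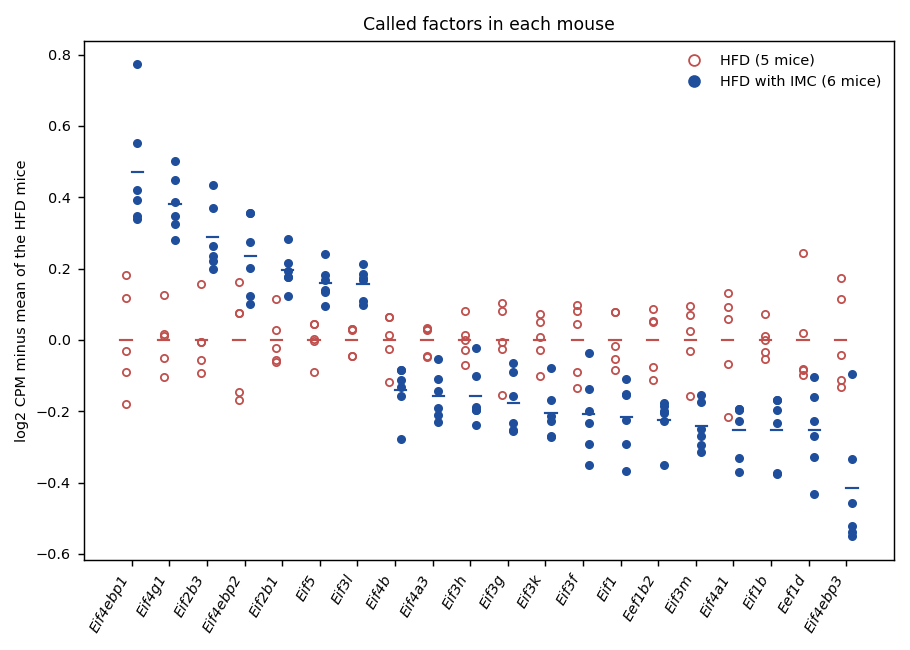
Log2 CPM of the 20 called members in each mouse, less the mean of the HFD mice for that gene (y axis). Open points are the 5 HFD mice, filled points the 6 IMC-treated mice, and lines the group means. Eif4ebp1 and Eif4g1 show the IMC-treated mice clear of the HFD mice, while in Eif4b 1 HFD mouse and 3 IMC-treated mice, and in Eif4ebp3 2 HFD mice and 1 IMC-treated mouse, lie within the range of the other group.

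eIF3, the large scaffold of the small subunit, had 1 member called higher and 5 called lower of 12, where 40.9% of all genes were called and 21% were lower. Its lower members were Eif3m (-0.24 ± 0.05, SE, adjusted p = 0.0033), Eif3f (-0.21 ± 0.06, adjusted p = 0.0183), Eif3k (-0.20 ± 0.05, adjusted p = 0.00432), Eif3g (-0.18 ± 0.06, adjusted p = 0.0249) and Eif3h (-0.16 ± 0.05, adjusted p = 0.0179). Eif3k measured 7.14, 6.97, 7.04, 7.08 and 7.12 log2 CPM in HFD mice, and 6.80 to 6.99 with a median of 6.85 in IMC-treated mice. Eif3m measured 5.66, 5.56, 5.61, 5.68 and 5.43, against 5.28 to 5.44 with a median of 5.33. In each of these 5 genes at least 1 HFD mouse lay within the range of the IMC-treated mice, and the call of Eif3g was lost in 3 of the 11 fits that left out 1 mouse. Eif3l, which binds beside Eif3k in the complex, moved the other way. It measured 7.13, 7.20, 7.20, 7.13 and 7.20 in HFD mice and 7.27 to 7.38 with a median of 7.34 in IMC-treated mice, a rise of 0.16 ± 0.04 (SE, adjusted p = 0.00569) with no overlap. Eif3a, Eif3b and Eif3c, for the large core subunits, were not called, with log2 fold changes of 0.00, -0.03 and 0.06. Eif3m shares 37.3% and Eif3h 26.2% of their 50-base windows with other genes, while Eif3f, Eif3k and Eif3l share none.

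The factors that select the start codon showed lower eIF1 and higher eIF5 expression. Eif1 measured 6.85, 6.69, 6.76, 6.72 and 6.85 log2 CPM in HFD mice and 6.41 to 6.66 with a median of 6.58 in IMC-treated mice, a fall by 0.22 ± 0.05 on the log2 scale (SE, adjusted p = 0.00678). Eif1b, its close relative, measured 5.34, 5.33, 5.28, 5.30 and 5.40 against 4.95 to 5.16 with a median of 5.11, a fall by 0.25 ± 0.05 (SE, adjusted p = 0.00261). Neither gene overlapped between the groups, and the ratio of Eif1 to Eif1b differed by 0.04 (exact permutation test, p = 0.299, adjusted p = 0.427). Eif1 shares 31.6% of its windows with 18 other genes, so its count is uncertain, while Eif1b shares none. eIF1 holds the scanning ribosome open at poor start codons, whereas eIF5, the GTPase activator of eIF2, favours their use. Eif5 measured 7.68, 7.72, 7.67, 7.72 and 7.59 in HFD mice and 7.77 to 7.92 with a median of 7.83 in IMC-treated mice, a rise of 0.16 ± 0.04 (SE, adjusted p = 0.00841) without overlap. Eif1a and Eif1ax were not called, and their ratio rose by 0.14 (exact permutation test, p = 0.0173, adjusted p = 0.0433), a call lost in 8 of the 11 fits that left out 1 mouse. Of the others, Eif5a2 (-0.18 ± 0.07, SE, adjusted p = 0.0642), Eif5b (-0.11 ± 0.05, adjusted p = 0.0716), Eif6 (-0.10 ± 0.04, adjusted p = 0.0779) and Eif5a (-0.11 ± 0.05, adjusted p = 0.0872) missed the threshold.

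Of the 6 genes for eIF2 and for alternative carriers of initiator tRNA, none was called. The same held for the 4 kinases that phosphorylate eIF2, where 40.9% of all genes were called. The smallest adjusted p of these groups were 0.07 for Eif2a (-0.15 ± 0.06, SE) and 0.0985 for Eif2d (0.11 ± 0.05, SE), both for proteins that can bring in initiator tRNA without eIF2. Eif2s1, the subunit that is phosphorylated, differed by -0.03 ± 0.05 (SE, 95% interval -0.13 to 0.07). Among the kinases, Eif2ak2 differed by 0.11 ± 0.07 and Eif2ak4 by -0.06 ± 0.08 (SE). The Y-linked Eif2s3y averaged 6.07 ± 0.09 log2 CPM (SD, n = 5) in HFD mice and the X-linked Eif2s3x 2.56 ± 0.17 (SD, n = 5). Eif2s3x shares 36.2% of its 50-base windows with other genes, and its level is uncertain.

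eIF2B, which recharges eIF2 with GTP, had 2 of its 5 subunit genes called, both higher. Of all genes, 40.9% were called and 20% were higher. Eif2b3 measured 4.20, 4.15, 4.12, 4.20 and 4.37 log2 CPM in HFD mice and 4.41 to 4.64 with a median of 4.46 in IMC-treated mice, a rise of 0.29 ± 0.06 (SE, adjusted p = 0.00328). Eif2b1 measured 5.05, 5.02, 5.02, 5.11 and 5.19 against 5.20 to 5.36 with a median of 5.26, a rise of 0.20 ± 0.05 (SE, adjusted p = 0.00614). Neither overlapped, although the highest HFD mouse, mouse 5, lay close to the lowest IMC-treated mouse in both. Eif2b2, Eif2b4 and Eif2b5, the last for the catalytic subunit, were between 0.03 and 0.06 and were not called.

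Elongation factor genes and their modifying enzymes numbered 8, and 2 were called, both lower, where 40.9% of all genes were called and 21% were lower. Eef1a1 had the highest level per kb of exon (9.18 log2 CPM per kb), followed by Eef2 (8.92) and, some way below, Eif5a (7.06), Eif4g2 (6.84) and Eif4g1 (6.51). Eif2s3x had the lowest (0.64). Eef1b2, for the exchange subunit of eEF1B, measured 7.95, 7.82, 7.95, 7.98 and 7.78 log2 CPM in HFD mice and 7.55 to 7.72 with a median of 7.70 in IMC-treated mice. The groups were separate, and it fell by 0.22 ± 0.05 on the log2 scale (SE, adjusted p = 0.00341). Eef1d, for the second exchange subunit, measured 6.68, 6.56, 6.58, 6.58 and 6.90 against 6.23 to 6.56 with a median of 6.41, and fell by 0.25 ± 0.07 (SE, adjusted p = 0.0137). Eef1g and Eef1e1 were not called, at -0.11 ± 0.06 and -0.06 ± 0.07 (SE). Eef1a1 measured 10.58, 10.55, 10.66, 10.57 and 10.51 in HFD mice and 10.38 to 10.49 with a median of 10.43 in IMC-treated mice. Its groups did not overlap, but its difference of -0.14 ± 0.06 (SE) missed the threshold (adjusted p = 0.058), and 59.2% of its 50-base windows are shared with other genes. Eef1a1 was called lower with total-count scaling, without the trend, with voom and with a minimum level (adjusted p = 0.0208, 0.0207, 0.0389 and 0.045). The other alternatives, among them each of the 11 fits that left out 1 mouse, did not call it (adjusted p from 0.0538 to 0.143). Eef2 differed by -0.09 ± 0.06 (SE, adjusted p = 0.248), and Eef2k, for the kinase that inhibits eEF2, by 0.03 ± 0.08 (SE, adjusted p = 0.79). Together Eef1a1 and Eef2 held 31.3% ± 0.525 (SD, n = 5) of the summed CPM of the 60 members in HFD mice and 29.4% ± 0.607 (SD, n = 6) with IMC.

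**Figure D3:**
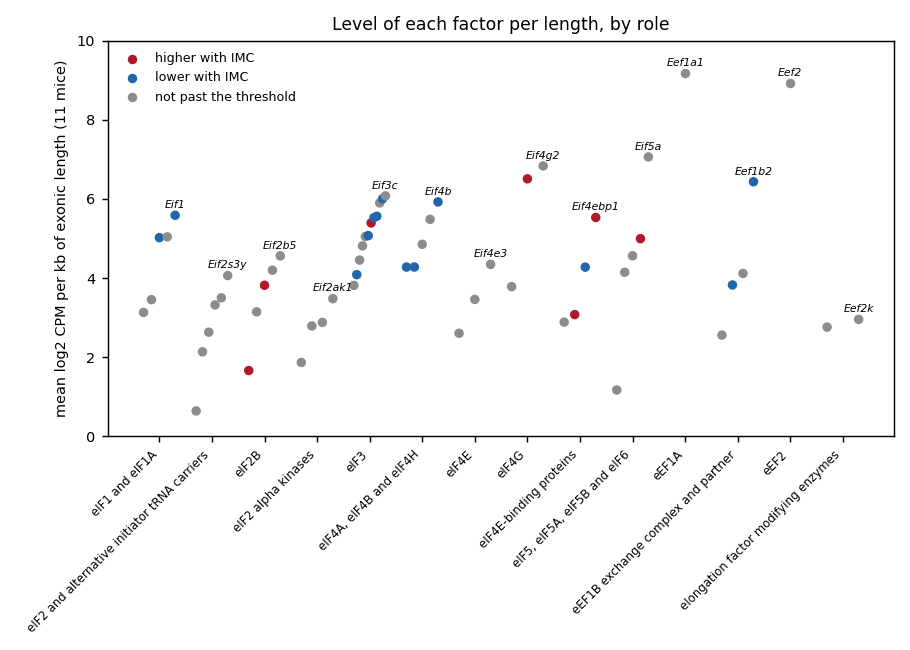
Mean log2 CPM per kb of exonic length over the 11 mice (y axis) for each member, by role (x axis), with the highest member of each role named. Eef1a1 at 9.18 and Eef2 at 8.92 stand above all other members, and called members (coloured) occur from high to low levels.

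**Figure D4:**
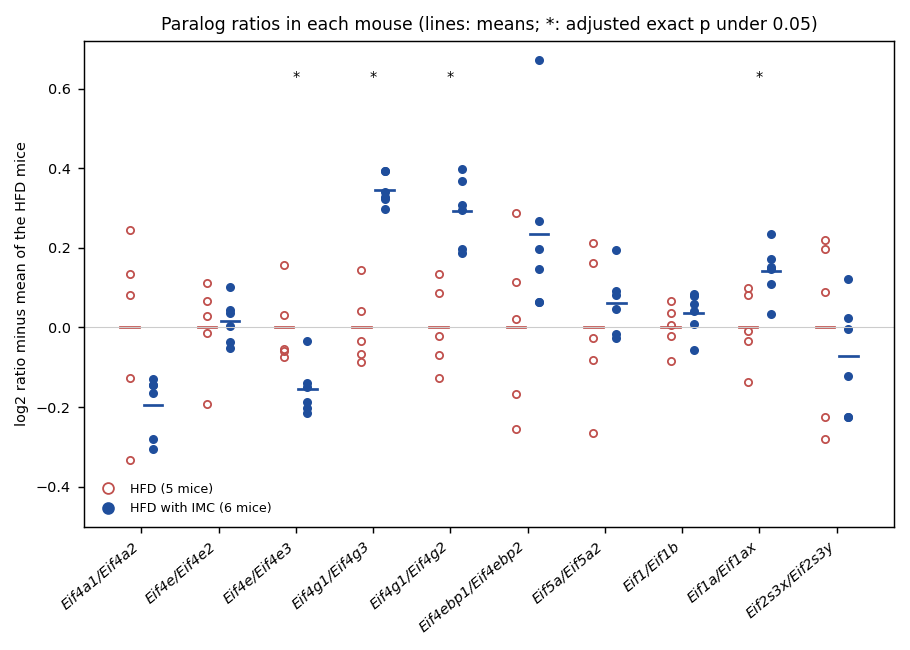
Log2 ratio of 10 pairs of related factors in each mouse, less the mean of the HFD mice (y axis), with group means as lines and an asterisk for an adjusted exact p under 0.05. Both ratios with Eif4g1 are higher in every IMC-treated mouse than in any HFD mouse, while the other marked pairs, Eif4e/Eif4e3 and Eif1a/Eif1ax, overlap.

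Called members differed in gene length. The median exonic length was 5784 bases for the 7 higher members, 2532 bases for the 13 lower members and 4998 bases for those not called. Across the 60 members, the log2 fold change and exonic length had a Spearman rho of 0.347, and across all genes the rho was 0.119, given as a description because genes share the same libraries. With GC content and length removed within each mouse, the counts were 7 higher and 15 lower, and 5335 of all 12731 genes in that fit were called. Of the 9 called members whose groups overlapped, 7 had HFD mouse 2 within the range of the IMC-treated mice. That mouse had the second highest summed adipocyte markers of the HFD group (13698 CPM), and HFD mouse 5, the highest (13933 CPM), lay inside the range in 2. HFD mouse 3 (10597 CPM) lay inside it in 3, and HFD mice 1 and 4 (9734 and 11270 CPM) in 0. Of the IMC-treated mice, mouse 6 (22529 CPM) lay within the HFD range most often, in 5 members. The part of adipocyte content in the overlap was not tested. Without HFD mouse 2, 7 members were higher and 16 lower, and 5063 of all 12787 genes were called. Of 65 cytosolic ribosomal protein genes, the partners of these factors in the ribosome, 1 was higher and 51 were lower (against 20% and 21% of all genes). Their median log2 fold change was -0.31. That set was chosen after the data were seen, and shared sequence was not counted for it.

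Genes that surround the factors were described by 9 lists, and 40 of their 99 measured genes were called (40.4%, against 40.9% of all genes). Of 21 measured targets of the integrated stress response, the program set off by phosphorylated eIF2 alpha, 8 were higher and 1 lower (against 20% and 21% of all genes), with a median log2 fold change of 0.09. Vldlr, the very low density lipoprotein receptor, rose by 0.93 ± 0.10 (SE, adjusted p = 3.5e-05). Psat1 and Phgdh, of serine synthesis, rose by 0.62 ± 0.07 and 1.02 ± 0.13 (SE, adjusted p = 3.62e-05 and 8.87e-05), and Cth, which makes cysteine, by 0.63 ± 0.08 (SE, adjusted p = 7.93e-05). Gdf15, a secreted stress hormone, fell by 0.83 ± 0.21 on the log2 scale (SE, adjusted p = 0.00609). Atf4 (-0.11 ± 0.05, SE, adjusted p = 0.071), which drives the program, and Ddit3 (-0.08 ± 0.08, adjusted p = 0.422) were not called. All 10 adipocyte markers moved in the same direction as the 8 higher targets, and the part of adipocyte content was not tested.

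Of 20 measured genes of the mTORC1 pathway, which phosphorylates the 4E-BPs, 9 were higher and 2 lower (against 20% and 21% of all genes), with a median log2 fold change of 0.15. Rps6kb1, the S6 kinase, rose by 0.35 ± 0.04 (SE, adjusted p = 7.08e-05) and Mtor, the kinase itself, by 0.39 ± 0.06 (SE, adjusted p = 0.000402). Deptor, an inhibitor of the complex, rose by 0.65 ± 0.09 (SE, adjusted p = 0.000138). The members with opposite roles thus rose together, and protein phosphorylation was not measured. Of 8 measured eIF4E kinases and cap regulators, 1 was higher and 2 were lower (against 20% and 21% of all genes). Mknk2, which phosphorylates eIF4E, rose by 0.33 ± 0.07 (SE, adjusted p = 0.00209). Cyfip2, a relative of the eIF4E-binding repressor Cyfip1, fell by 0.72 ± 0.11 on the log2 scale (SE, adjusted p = 0.000378), and Gigyf1 fell by 0.17 ± 0.06 (SE, adjusted p = 0.0436).

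**Figure D5:**
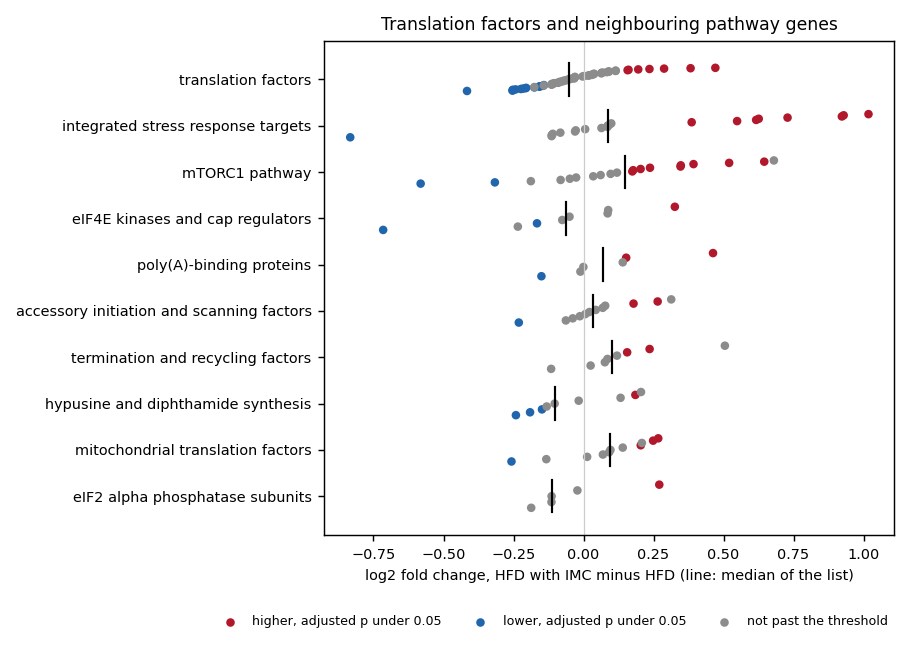
Log2 fold change (x axis) of each gene in the 60 members and in 9 lists of neighbouring pathways (y axis), with the list median as a line and called genes coloured. The stress response targets reach 1.02 (Phgdh) and -0.83 (Gdf15), while the factors stay between -0.42 and 0.47.

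Calls in the remaining lists stand beside 20% of all genes called higher and 21% called lower. Among 6 genes for poly(A)-binding proteins and proteins that act on them, Pabpc1, Pabpc4 and Pabpn1, for the binding proteins themselves, were not called (adjusted p = 0.92, 0.112 and 0.996). Paip2b and Paip2, which block poly(A)-binding protein, rose by 0.46 ± 0.06 and 0.15 ± 0.05 (SE, adjusted p = 0.000135 and 0.0185). Paip1, which assists poly(A)-binding protein, fell by 0.15 ± 0.05 (SE, adjusted p = 0.0386). Of 12 accessory factors, Ddx3y and Dhx29, both helicases, rose by 0.26 ± 0.06 and 0.18 ± 0.06 and Abtb1 fell by 0.23 ± 0.06 on the log2 scale (SE, adjusted p = 0.00556, 0.024 and 0.00614). Of 8 termination and recycling factors, Hbs1l and Pelo, which rescue stalled ribosomes, rose by 0.16 ± 0.04 and 0.24 ± 0.09 (SE, adjusted p = 0.00909 and 0.0435). Of 9 genes for hypusine and diphthamide synthesis, the modifications of eIF5A and eEF2, 3 were lower and 1 higher (against 21% and 20% of all genes). Dhps and Dohh, the enzymes that make hypusine on eIF5A, fell by 0.24 ± 0.06 and 0.19 ± 0.07 (SE, adjusted p = 0.0075 and 0.0374). Of 11 mitochondrial translation factors, Gfm1, Gfm2 and Mrrf rose, by 0.25, 0.20 and 0.27 (adjusted p = 0.0015, 0.0154 and 0.00826), and Guf1 fell by 0.26 (adjusted p = 0.00834). Ppp1cb was the 1 of 5 eIF2 alpha phosphatase subunit genes that was called, at 0.27 ± 0.06 (SE, adjusted p = 0.00265).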

How the data were processed

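RNA from the gonadal WAT of 11 mice was sequenced from directional mRNA libraries. Per the paper and the submitters' processing notes, reads passed through Trim Galore and were mapped to mm10 by STAR, which also made the gene counts. The authors then scaled the libraries with edgeR by the upper quartile, removed genes with low counts and deposited log2 CPM values for 12787 genes. The deposited table also holds the authors' log2 fold change, a likelihood-ratio score, a p-value and an FDR, none of which was used. All deposited log2 values converted to whole reads within 0.02 reads, and these reads were used for depth and for alternative scalings; 1 read was worth between 0.0403 and 0.0450 CPM. These depths are counts of reads, which need not be independent molecules.

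The groups, taken from the treatment labels, were compared with limma 3.58.1 in R 4.3.3 (lmFit and eBayes with trend). Single ratios used two-sided exact permutation tests. No filter was added. Alternatives were other scalings, 2 added reads, voom, no trend, a minimum level, removal of GC content and length, and leaving out each mouse. Python 3.11.15, numpy 2.4.6, pandas 2.3.3 and matplotlib 3.10.9 were used, and the scripts were tested on simulated data. Shared 50-base windows were counted in GENCODE transcripts, which also gave exonic length and GC content for 12731 genes (99.6%); coordinates are those of RefSeq genes on GRCm38.p6, the same build as mm10. Labels give no culture, cage or batch, and the mouse numbers pair no animals.

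Genes are named by a rule. It takes the 2 members with the smallest p in each role, the 8 largest called changes, the 6 highest levels, pairs past the exact test, and the 3 smallest p in each list. Other called members and the remaining named genes were added after their values were seen. The members and lists were chosen with earlier results of these data known. The strand setting of the count is not given in the sources used here. Symbols on the role lists that the table does not hold, such as Eef1a2 and Eif3j1, were not analysed here.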

Additional observations from a re-analysis of the deposited data

Results flagged for a closer look

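A total of 3 members had 1 mouse far from the others of its group, by Dixon's test at the 95% level over 120 tests (60 members in 2 groups), where chance gives about 6. Eif2ak3 was 5.39 log2 CPM in HFD mouse 5 and 5.36 to 5.37 in the other HFD mice. Eif4b was 7.88 in IMC mouse 1 and 8.004 to 8.08 in the other IMC-treated mice, and its call was lost without that mouse. Eef1b2 was 7.55 in IMC mouse 5 and 7.67 to 7.72 in the others, and its call did not depend on that mouse.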

How the results depend on the processing

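The counts of 7 higher and 13 lower members were the same with 2 reads added before logs and with median-of-ratios scaling, while voom and a minimum mean of 2 log2 CPM each gave 7 and 14 and a fit without the trend 7 and 15. Total-count scaling gave 20 lower members and a median log2 fold change of -0.085. That scaling also moved the median over all genes, from -0.026 to -0.058. Leaving out each mouse gave 6 to 8 higher and 11 to 16 lower members, and 2 to 5 paralog ratios past the exact test (4 with all mice). The share of reads on the factors differed by -0.016 percentage points, and by -0.038 with reads on listed genes. Values near 0 changed sign. With total-count scaling, Eef2k was -0.0029 and Eif3a -0.030. With GC content and length removed, a fit chosen after the data were seen, Eef2k was -0.017, Eif3a -0.044 and Eif4g3 -0.026. Without 1 mouse, Eef2k ranged from -0.015 to 0.069, Eif3a from -0.031 to 0.022, the ratio of Eif4e to Eif4e2 from -0.032 to 0.044 and that of Eif5a to Eif5a2 from -0.0040 to 0.115. The cause was not tested. Protein levels and phosphorylation were not measured. No paired analysis was possible because the mouse numbers in the labels do not pair the groups.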
